A study of Mus musculus with 6 samples.

Results

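Amino acid transporters of cultured mouse microglia were examined in 6 RNA libraries, 3 from microglia treated with extracellular vesicles (EVs) and 3 from control microglia. The transporters were taken as every gene entry whose symbol begins with Slc1a, Slc3a, Slc6a, Slc7a, Slc36a, Slc38a or Slc43a, apart from the arginine carrier Slc7a2 and the cystine carrier Slc7a11. This gave 65 of 48005 entries, and 0 of the 65 are joined with another gene. The rule also takes in 4 opposite-strand entries with symbols ending in os, which encode no known carrier, and family members with other substrates, such as creatine or serotonin. The EVs, membrane-bound particles released by cells, were spun down in steps from cultures of neural stem cells of the subventricular zone of CD1 mice, and the microglia, the resident macrophages of the brain, were kept in culture under EV or control treatment. The labels state neither the dose and duration of the treatment nor what the control cultures received. Libraries carry the letters A, B and C of their titles. Nothing states that samples came from separate cultures, so a p-value here measures sample-to-sample spread that may be technical only.

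Amino acids cross membranes through carrier proteins of several families, some driven by the sodium gradient, some by protons, and some by exchange of one amino acid for another. In the brain, sodium-driven carriers clear the transmitters glutamate, glycine and GABA from the extracellular space, exchangers at the cell surface bring in leucine, glutamine and arginine, and carriers of the lysosome release the products of protein breakdown. Several of the exchangers are made of a heavy chain, which takes the complex to the membrane, and a light chain, which carries the substrate.

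Counts summed over all exon bins came to 133112063 to 142805303 in EV-treated and 109744701 to 162544804 in control libraries. Levels are given as CPM, which are counts divided by the TMM-scaled library size and set to a common total, and per kb of exon where genes are compared with each other. Of 12 microglial markers, 0 rose and 9 fell, with a summed level of 4640 to 4790 CPM in EV-treated and 7380 to 9080 CPM in control libraries. The summed level of 7 neural stem cell markers was 3.11 to 4.33 CPM in EV-treated and 46 to 82.7 CPM in control libraries, most of it Nes. Of the 3 tested, 1 was higher (Prom1, log2 fold change 4.01) and 1 lower (Nes, -4.79). For 8 markers of the oligodendrocyte lineage it was 34.9 to 47.1 CPM in EV-treated and 217 to 444 CPM in control libraries, most of it Cspg4, with 1 marker higher (Pdgfra, joined with Mir7025, log2 fold change 3.45) and 2 lower of 5 tested. For 8 markers of fibroblasts and endothelium it was 16 to 24 CPM in EV-treated and 14 to 36.9 CPM in control libraries, most of it collagens. Of the 6 tested here 4 rose, Dcn by 5.51, Cdh5 by 3.81, Pecam1 by 3.24 and Pdgfrb by 2.89 on the log2 scale, and 1 fell. All 9 neuronal markers averaged under 1 CPM in both groups, with 1 higher (Gad1, 3.95) and 1 lower (Rbfox3, -2.70) of 4 tested. The part of these shifts in the results was not tested. In bulk RNA, fewer cells of a type and less RNA per cell cannot be told apart.

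Of the 65 transporter entries, 39 had enough counts to be tested with edgeR's quasi-likelihood test. In EV-treated libraries 19 rose and 13 fell at an adjusted p under 0.05, and 7 did not pass, so that 82.1% of the tested entries changed, against 66.5% of all 16605 entries tested (33.0% higher and 33.5% lower). Groups did not overlap for 32 of the 39 tested entries (19 higher and 13 lower), the same 32 that changed. Over all entries tested, groups did not overlap for 71.3% (35.2% higher and 36.1% lower). Both an adjusted p under 0.05 and a log2 change of at least 1 in size were reached by 24 of the 39. Over all entries tested, 40.0% reached both. At the same adjusted p, a log2 change of at least 2 in size was reached by 7 rises and 4 falls, together 11 of 39 entries. The share of all entries tested that reached both was 19.1%. The median log2 fold change was 0.24 over the 39 entries and -0.02 over all entries tested. The median of the transporters was 0.56 when EV-treated B was left out, 0.11 without EV-treated C, 0.41 without control B and 0.37 without control C, and it was -0.11 with library totals alone as the scaling, so no common direction was read from it. With totals alone the median of all entries was -0.38 and 34% of all calls were rises, against 49.7% with TMM, and a log2 change given here is relative to the TMM scaling.

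Rises and falls were both found in 6 of the 7 families by symbol. Slc1a had 3 rises and 2 falls among 5 tested entries, Slc6a had 7 and 2 among 11, Slc7a had 2 and 5 among 9, Slc36a had 1 and 2 among 3, Slc38a had 3 and 1 among 6, and Slc43a had 2 and 1 among 3. In Slc3a 1 of 2 entries rose.

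**Figure D1:**
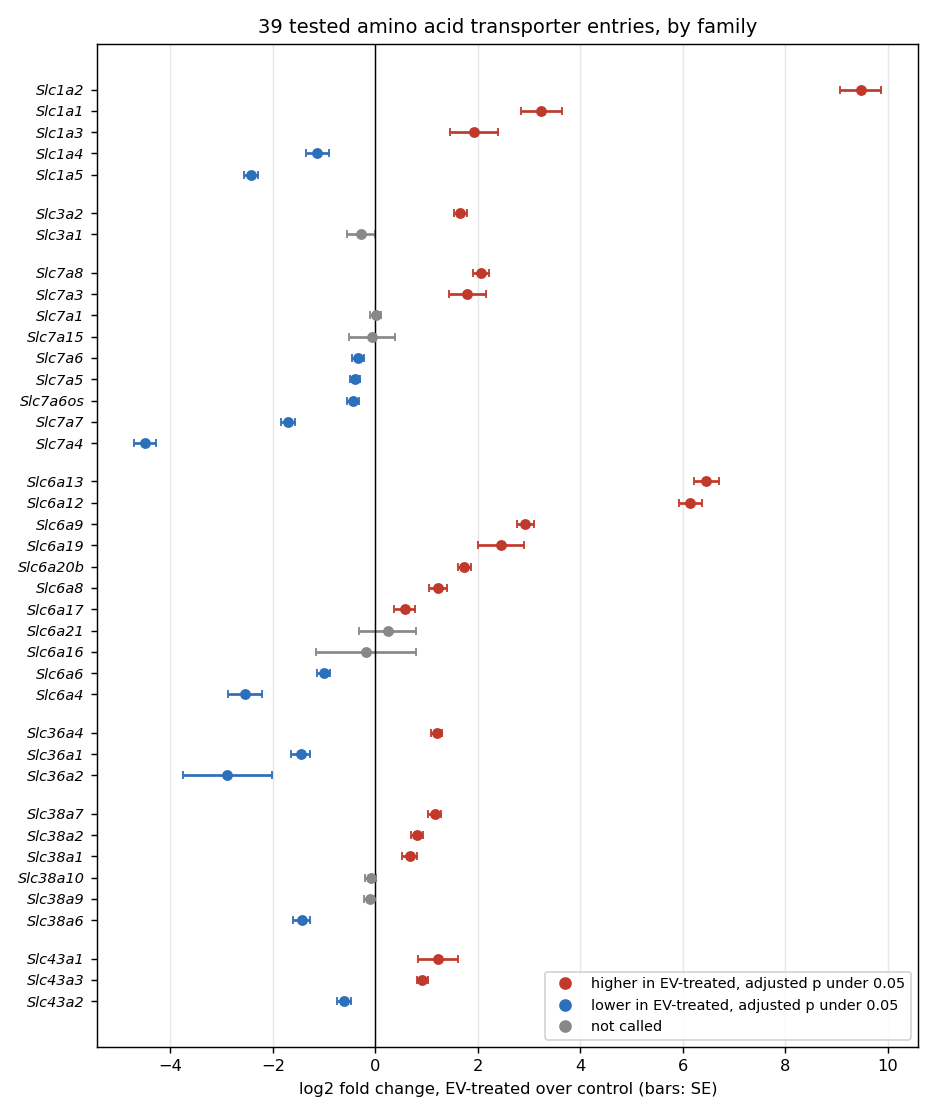
Log2 fold change of the 39 tested transporter entries in EV-treated over control microglia, by family, with bars for the standard error of edgeR's quasi-likelihood fit. The values run from -4.49 for Slc7a4 to 9.47 for Slc1a2, with 19 entries called higher and 13 called lower.

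The 3 tested carriers of glutamate, all of the Slc1a family, rose in EV-treated microglia. Slc1a2 (chr2:102658659-102790784, GRCm38), which encodes the glutamate carrier best known from astrocytes, had 78.0, 55.7 and 90.6 CPM in EV-treated libraries and 0.0683, 0.0315 and 0.186 CPM in control libraries. Every EV-treated library was far above every control library, and the log2 fold change of 9.47 (SE of 0.40, adjusted p = 5.43e-08, edgeR's quasi-likelihood test with Benjamini-Hochberg adjustment) was the largest of the 39 entries. Slc1a1, a glutamate carrier that also takes up cysteine, had 0.718, 1.59 and 1.30 CPM in EV-treated and 0.129, 0.0867 and 0.159 CPM in control libraries, a log2 fold change of 3.24 with an SE of 0.40 (adjusted p = 6.39e-05). Slc1a3, the other glutamate carrier known from astrocytes, had 0.339, 0.211 and 0.461 CPM in EV-treated and 0.0531, 0.110 and 0.101 CPM in control libraries, a log2 fold change of 1.92 with an SE of 0.47 (adjusted p = 0.00502). Neither Slc1a1 nor Slc1a3 reached 2 CPM in any library, and their groups did not overlap.

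Counts along Slc1a2 were higher in EV-treated libraries in each of the 26 exon bins with at least 50 counts. The first 5 bins, at chr2:102658659-102659301, held 1234, 881 and 1895 counts in EV-treated libraries and 0 in every control library, and bins 14 to 34 held 8420, 5443 and 9692 counts in EV-treated against 9, 4 and 35 in control libraries. Bins 8 to 13 between them held 0 counts in all 6 libraries. Bins with 9.33% of the counts of Slc1a2 share bases with Gm13872, an entry of the opposite strand, and the log2 fold change was 9.34 without them.

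Of 8 astrocyte markers, 5 were tested, of which 2 rose and 1 fell in EV-treated libraries. Their summed level was 33.9 to 40.1 CPM in EV-treated and 14.8 to 20.3 CPM in control libraries. Most of the EV-treated sum was Gja1, which encodes the gap junction protein connexin 43 and averaged 29.1 CPM in EV-treated and 0.0943 CPM in control libraries. Most of the control sum was Aldh1l1, joined with Gm45901. It fell, with 1.72 CPM in EV-treated and 13.4 CPM in control libraries (log2 fold change -2.96). The other rise was that of Aldoc, by 0.82 on the log2 scale. Gfap and Aqp4 averaged 0.0365 and 0.00521 CPM in EV-treated and 0.0834 and 0.0184 CPM in control libraries. Fgfr3 and S100b averaged 0.137 and 0.0351 CPM in EV-treated and 0.0845 and 0.063 CPM in control libraries. Gjb6 had 0 counts in all 6.

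The neutral amino acid carriers of the same family were lower. Slc1a5, a sodium-driven exchanger that brings in glutamine, had 9.20, 7.22 and 9.28 CPM in EV-treated and 42.3, 44.9 and 50.9 CPM in control libraries, a log2 fold change of -2.42 with an SE of 0.14 (adjusted p = 2.93e-07). All 17 of its bins with at least 50 counts were lower. Slc1a4, which carries alanine, serine and cysteine, averaged 0.850 CPM in EV-treated and 1.87 CPM in control libraries, a log2 fold change of -1.13 (SE 0.22).

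In the Slc6a family, sodium- and chloride-driven carriers of transmitters and osmolytes, the largest change of an entry with a mean of at least 5 CPM was that of Slc6a12 (chr6:121343076-121365775), which takes up betaine and GABA. It had 74.2, 62.6 and 82.7 CPM in EV-treated and 1.02, 1.36 and 0.748 CPM in control libraries, a log2 fold change of 6.15 with an SE of 0.23 (adjusted p = 2.55e-08). All 26 of its bins with at least 50 counts were higher in EV-treated libraries. Per kb of exon its level stood at percentile 87.3 of all tested entries in EV-treated libraries and at 25.7 in control libraries.

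The neighbouring entry Slc6a13, a GABA carrier on the same strand that ends 5342 bases before Slc6a12 begins, had 4.33, 4.68 and 4.40 CPM in EV-treated and 0.0607, 0.0552 and 0.0371 CPM in control libraries, with a log2 fold change of 6.46 (SE 0.25). The last 2 of its 20 bins held 537, 530 and 560 counts in EV-treated against 7, 7 and 7 in control libraries. The other 18 held 0, 2 and 3 counts in EV-treated and 1, 0 and 0 in control libraries. The rise was therefore measured at the 3' end of Slc6a13 alone, next to Slc6a12, and transcripts of the 2 entries cannot be told apart there.

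Slc6a9, which takes up glycine, had 12, 10.5 and 9.93 CPM in EV-treated and 1.59, 1.26 and 1.42 CPM in control libraries, a log2 fold change of 2.93 (SE 0.16). All 25 of its bins with at least 50 counts were higher, and bins with 27.6% of its counts share bases with the joined entry B4galt2+Gm17114+Ccdc24 of the opposite strand, which had a log2 fold change of 2.76. Without those bins the value for Slc6a9 was 2.96. Slc6a8, which takes up creatine and stood at percentile 98.9 of level per kb in EV-treated and 98.5 in control libraries, had 1795, 1475 and 1968 CPM in EV-treated and 915, 724 and 607 CPM in control libraries, a log2 fold change of 1.22 (SE 0.18). No EV-treated library fell within the control range. The taurine carrier Slc6a6 was lower, with 385, 367 and 440 CPM in EV-treated and 850, 781 and 762 CPM in control libraries, a log2 fold change of -1.01 (SE 0.12), and its groups did not overlap either.

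Slc6a20b, one of a pair of mouse genes related to the proline carrier of other mammals, had 55.3, 52.5 and 49.4 CPM in EV-treated and 14.3, 14.6 and 18.2 CPM in control libraries, a log2 fold change of 1.74 (SE 0.12). Its last bin (chr9:123590800-123593819) held 99.6% of these counts, and it shares bases with Sacm1l on the opposite strand, which encodes a phosphoinositide phosphatase. Sacm1l had 276, 269 and 256 CPM in EV-treated and 67.4, 64.6 and 85.8 CPM in control libraries, a log2 fold change of 1.88 (SE 0.13). The first 25 bins of Slc6a20b held 22, 28 and 46 counts in EV-treated and 7, 5 and 10 in control libraries, a log2 fold change of 2.39 (adjusted p = 0.0016) from bins of no other entry. The level printed for Slc6a20b cannot be told apart from that of Sacm1l, and the counts of its own bins were higher in every EV-treated library.

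**Figure D2:**
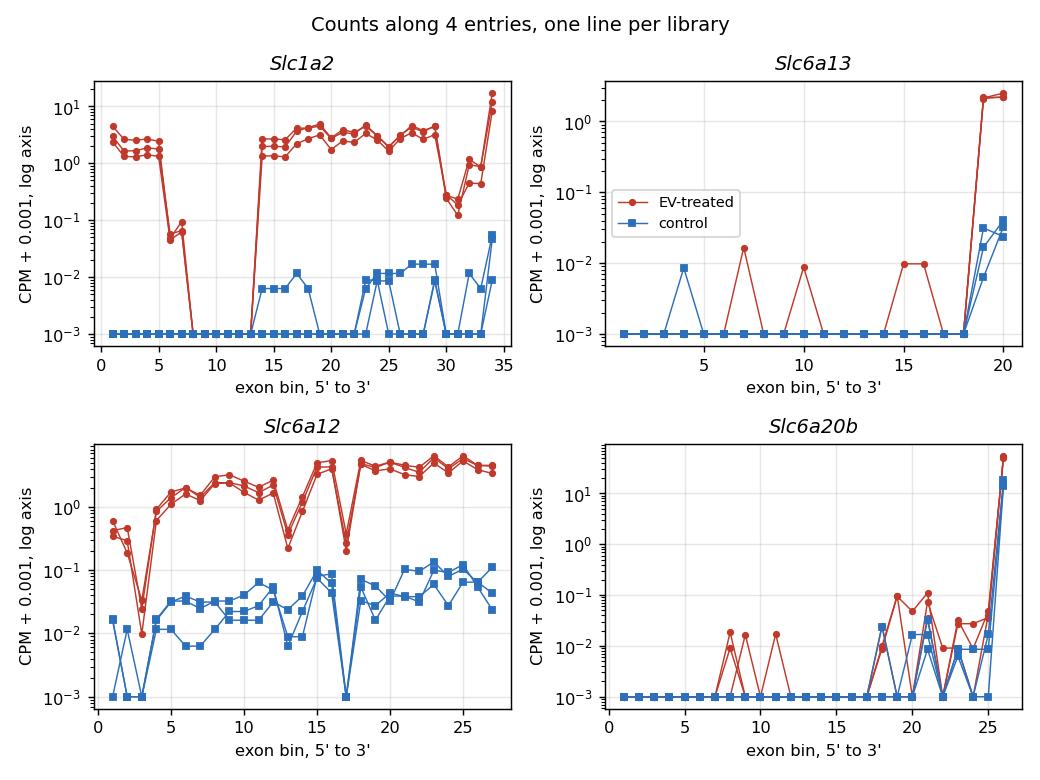
CPM plus 0.001 on a log axis for each exon bin, 5' to 3', of Slc1a2, Slc6a13, Slc6a12 and Slc6a20b, with 1 line per library, EV-treated as circles and control as squares. Slc1a2 and Slc6a12 were higher in EV-treated libraries in all 26 bins with at least 50 counts, while counts of Slc6a13 lie in its last 2 bins and 99.6% of those of Slc6a20b in its last bin.

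Of the less abundant Slc6a entries, Slc6a19, a neutral amino acid carrier of gut and kidney, averaged 1.28 ± 0.578 CPM in EV-treated and 0.235 ± 0.100 CPM in control libraries (SD, n = 3 each), a log2 fold change of 2.46. Slc6a17, a vesicular carrier known from neurons, had 3.51, 3.73 and 3.77 CPM in EV-treated and 2.41, 3.21 and 1.81 CPM in control libraries, with a log2 fold change of 0.57 and an adjusted p of 0.0372. It did not pass when EV-treated A, B or C or control A or C was left out (adjusted p of 0.0745 to 0.115), nor with upper-quartile scaling, totals alone or the bin with the most counts. Slc6a4, the serotonin carrier, averaged 0.372 ± 0.139 CPM in EV-treated and 2.16 ± 0.581 CPM in control libraries, a log2 fold change of -2.54, and was lower in all 13 of its bins with at least 50 counts. Slc6a16 and Slc6a21, whose substrates are not known, stayed under 0.2 CPM in every library and did not pass.

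The heteromeric exchangers pair the heavy chain Slc3a2 with one of several light chains. Slc3a2 (chr19:8706882-8723369) had 2132, 1978 and 1833 CPM in EV-treated and 643, 581 and 651 CPM in control libraries, a log2 fold change of 1.66 with an SE of 0.12 (adjusted p = 1.93e-06). Of its 26 bins with at least 50 counts, 24 were higher in every EV-treated library and 0 were lower. Per kb of exon it was the most abundant of the transporters in both groups, at percentile 99.4 of all tested entries in EV-treated and 98.8 in control libraries.

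Light chains moved in both directions. Slc7a8, an exchanger of large and small neutral amino acids, had 508, 416 and 592 CPM in EV-treated and 133, 102 and 129 CPM in control libraries, a log2 fold change of 2.06 with an SE of 0.16 (adjusted p = 3.06e-06). All 11 of its bins were higher in EV-treated libraries. Slc7a5, the exchanger that brings in leucine and is best known from dividing and activated cells, had 11.4, 11.5 and 11.1 CPM in EV-treated and 15, 14.8 and 15.1 CPM in control libraries, a log2 fold change of -0.40 with an SE of 0.10 (adjusted p = 0.0064). Of its 13 bins with at least 50 counts, 6 were lower and 7 overlapped. Slc7a7, which exchanges cationic for neutral amino acids, had 20.3, 23.6 and 18.8 CPM in EV-treated and 78.0, 58.7 and 68.5 CPM in control libraries, a log2 fold change of -1.71 (SE 0.14). Groups did not overlap for any of these 3.

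Slc7a6, with the same kind of exchange as Slc7a7, had 18.9, 16.3 and 17.2 CPM in EV-treated and 23.9, 19.8 and 22.5 CPM in control libraries, a log2 fold change of -0.34 with an SE of 0.12 (adjusted p = 0.0265). The call was lost when EV-treated B (-0.28, adjusted p = 0.0776), EV-treated C (-0.33, adjusted p = 0.0565) or control A (-0.29, adjusted p = 0.0976) was left out. Of the 21 bins of Slc7a6 with at least 50 counts, 7 were lower and 14 overlapped. The entry Slc7a6os is a gene of the opposite strand whose symbol the rule takes in and which encodes no carrier. Its 3' end lies 2010 bases from that of Slc7a6. Slc7a6os had 9.82, 10.8 and 10.7 CPM in EV-treated and 12.6, 14.9 and 14.9 CPM in control libraries. Its groups did not overlap, and its log2 fold change was -0.44 (SE 0.12).

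On the scale of CPM per kb, Slc7a8 made up 90.4, 88.2 and 92.2% of the sum of the 4 light chains Slc7a5, Slc7a6, Slc7a7 and Slc7a8 in EV-treated libraries, against 50, 49.1 and 51.8% in control libraries. Slc7a8 stood at 40.9, 33.4 and 48.8 times the level of Slc7a5 in EV-treated and at 8.17, 6.32 and 7.86 times in control libraries. The level of Slc3a2 was 4.33, 4.79 and 3.26 times the sum of the 4 in EV-treated and 2.76, 3.20 and 2.98 times in control libraries, so the lowest EV-treated ratio lay just above the highest control ratio. These shares describe transcripts and leave out the light chain Slc7a11, which lies outside the rule. On the same scale Slc7a11 averaged 48.5 in EV-treated and 2.62 in control libraries. Counting it would lower the shares and ratios, more so in EV-treated libraries. The narrow gap between the groups in the Slc3a2 ratio therefore holds for these 4 light chains alone.

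**Figure D3:**
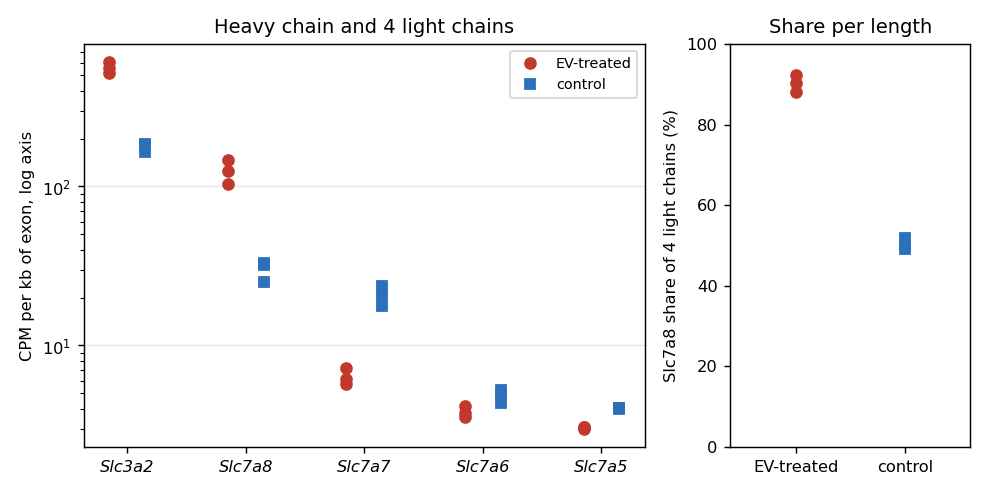
Levels of the heavy chain Slc3a2 and of 4 light chains in CPM per kb of exon for each library, and the share of the light chain sum that is Slc7a8, in percent, with EV-treated left of control. Slc7a8 held 88.2 to 92.2% of the sum in EV-treated and 49.1 to 51.8% in control libraries.

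The bins of Slc7a7 (chr14:54369442-54417780, minus strand) did not all move alike, since 16 of 22 bins with at least 50 counts were lower in EV-treated libraries, 2 were higher and 4 overlapped. Counts at 2 of its RefSeq start sites are set side by side here with the sequence around each. The bin at the downstream start site, position 54410203, held 11, 13 and 8 counts in EV-treated and 127, 90 and 156 in control libraries. The bins at the upstream start site, position 54417702, held 16, 15 and 7 counts in EV-treated and 6, 8 and 11 in control libraries. At the downstream site the groups were far apart, and at the upstream site they overlapped.

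The windows run from 250 bases before to 50 after the start site, on the strand of the gene, from RefSeq on GRCm38.p6, at chr14:54410154-54410453 for the downstream and chr14:54417653-54417952 for the upstream site. Capitals mark matches, on either strand, to 4 short motifs: TGATGNAA, the element that ATF4 binds with C/EBP proteins, the NF-kB site, ACGTG, the core of the hypoxia response element, and CACGTG, the E-box, which holds ACGTG on both strands.
Slc7a7 downstream: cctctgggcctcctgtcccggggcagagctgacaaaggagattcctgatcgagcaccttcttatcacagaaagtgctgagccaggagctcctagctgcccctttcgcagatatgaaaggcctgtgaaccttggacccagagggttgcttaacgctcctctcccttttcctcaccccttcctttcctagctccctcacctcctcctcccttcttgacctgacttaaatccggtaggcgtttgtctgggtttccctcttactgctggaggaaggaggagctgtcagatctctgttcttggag
Slc7a7 upstream: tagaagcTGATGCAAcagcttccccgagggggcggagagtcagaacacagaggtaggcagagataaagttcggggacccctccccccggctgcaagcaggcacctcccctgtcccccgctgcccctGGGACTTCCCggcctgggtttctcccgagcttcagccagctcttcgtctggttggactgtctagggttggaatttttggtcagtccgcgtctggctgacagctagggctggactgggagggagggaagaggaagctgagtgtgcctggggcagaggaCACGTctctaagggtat

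The upstream window has TGATGNAA beginning 243 bases and an NF-kB match beginning 124 bases before the start site, and ACGTG, read on the other strand, after it. The downstream window has none of the 4. Among all 32851 windows, 3.97% hold TGATGNAA, 4.51% the NF-kB site, 19.6% ACGTG and 7.15% CACGTG. Windows were found for 30 of the 39 tested transporter entries. Of 24 windows of entries that rose, 0 hold TGATGNAA and 12.5% the NF-kB site, and of 14 windows of entries that fell, 21.4% hold TGATGNAA and 21.4% the NF-kB site. Windows of 1 gene can overlap and share a match, as those of Slc7a7 do for both motifs, and the 14 windows come from 8 genes, of which 2 hold TGATGNAA and 2 the NF-kB site. Many of the windows of entries that rose lie at start sites with no exon bin or with 0 counts in all 6 libraries. They include that of Slc1a2 and the windows of Slc6a12 and Slc6a13 with an NF-kB match. A match is a description of letters in the window and not a site shown to be bound.

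The heavy chain Slc3a1, known from kidney and gut, did not pass as counted, with 0.597, 0.756 and 0.984 CPM in EV-treated and 0.880, 0.875 and 1.09 CPM in control libraries (log2 fold change -0.28, adjusted p = 0.368). A single bin that shares bases with Prepl on the opposite strand held 91.2% of these counts, and Prepl had a log2 fold change of -0.03. In bins of no other entry Slc3a1 had 13, 13 and 27 counts in EV-treated and 3, 3 and 4 in control libraries, which gave a log2 fold change of 2.62 (adjusted p = 0.00232), so its direction turned with the bins used. Slc1a1 likewise has 67.0% of its counts in bins shared with 4430402I18Rik, and its own bins, with 24, 61 and 52 counts in EV-treated and 5, 5 and 16 in control libraries, gave 2.73. The light chains Slc7a9, Slc7a10 and Slc7a13 were not tested. Slc7a9 had 0, 3 and 0 counts in EV-treated and 0 in every control library, Slc7a10 had 1, 0 and 0 in EV-treated and 1, 1 and 2 in control libraries, and Slc7a13 had 0, 0 and 9 in EV-treated and 1, 1 and 0 in control libraries. Slc7a15, a relative of these, averaged 0.593 ± 0.341 CPM in EV-treated and 0.619 ± 0.252 CPM in control libraries and did not pass.

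Among the cationic amino acid carriers, Slc7a1, the common arginine and lysine carrier, had 38.9, 34 and 41 CPM in EV-treated and 39.5, 34.7 and 38.9 CPM in control libraries, with overlapping groups and a log2 fold change of 0.01 (SE 0.11). With library totals alone its value was -0.35 and passed (adjusted p = 0.0237). Slc7a3, a related carrier known from neurons, averaged 0.639 ± 0.176 CPM in EV-treated and 0.183 ± 0.0393 CPM in control libraries, a log2 fold change of 1.79. Slc7a4, a relative of these for which no transport activity is firmly known, had 0.194, 0.229 and 0.242 CPM in EV-treated and 5.81, 4.53 and 4.65 CPM in control libraries, the deepest fall of the 39 entries at a log2 fold change of -4.49 (SE 0.21). All 9 of its bins with at least 50 counts were lower.

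Carriers of the lysosome and of protons moved in both directions. Slc36a1, which carries small amino acids out of the lysosome with protons, had 18.4, 17.5 and 26.1 CPM in EV-treated and 68.5, 47.6 and 54.7 CPM in control libraries, a log2 fold change of -1.46 (SE 0.18), and was lower in all 19 of its bins with at least 50 counts. Slc38a7, which carries glutamine out of the lysosome, had 136, 118 and 126 CPM in EV-treated and 63.0, 60.5 and 47.1 CPM in control libraries, a log2 fold change of 1.16 (SE 0.13), and was higher in 16 of 17 such bins. Slc36a4, a relative of Slc36a1 that carries proline and tryptophan, had 166, 151 and 171 CPM in EV-treated and 76.3, 65.4 and 70.6 CPM in control libraries, a log2 fold change of 1.20 (SE 0.11), higher in all 17 bins. Groups did not overlap for any of the 3.

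Slc38a9, the lysosomal arginine sensor of the mTORC1 pathway, had 18.3, 17.4 and 18.7 CPM in EV-treated and 18.8, 18.7 and 21.3 CPM in control libraries and did not pass (log2 fold change -0.11, SE 0.11). It passed with library totals alone (-0.48) and with the bin with the most counts (-0.62). Slc36a2, a proton-driven carrier of glycine and proline, had 0, 0.114 and 0.0234 CPM in EV-treated and 0.562, 0.205 and 0.249 CPM in control libraries, with a log2 fold change of -2.89 (SE 0.87) that did not pass without control A (-2.34, adjusted p = 0.0615).

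The promoter windows of Slc36a1 and Slc38a7 are shown because they are the carriers known from the lysosome that moved in opposite directions and both hold an E-box. They lie at chr11:55204090-55204389 on the plus strand and chr8:95853442-95853741 on the minus strand (RefSeq, GRCm38.p6), and capitals mark the same 4 motifs.
Slc36a1: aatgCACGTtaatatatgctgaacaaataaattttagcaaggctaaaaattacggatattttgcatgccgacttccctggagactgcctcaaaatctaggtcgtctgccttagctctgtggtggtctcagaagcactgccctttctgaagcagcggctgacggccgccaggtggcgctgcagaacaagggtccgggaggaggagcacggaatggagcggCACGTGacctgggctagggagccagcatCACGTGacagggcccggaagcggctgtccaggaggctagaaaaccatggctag
Slc38a7: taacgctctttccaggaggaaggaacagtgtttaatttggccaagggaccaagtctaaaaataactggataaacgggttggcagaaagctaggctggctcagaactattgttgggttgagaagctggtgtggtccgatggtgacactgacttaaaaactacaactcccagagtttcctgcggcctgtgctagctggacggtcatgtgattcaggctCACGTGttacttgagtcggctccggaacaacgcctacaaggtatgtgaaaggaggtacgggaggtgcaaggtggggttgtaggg
Slc36a1 holds 2 E-boxes, beginning 31 and 3 bases before the start site, and a separate ACGTG far upstream. Slc38a7 holds 1, beginning 34 bases before the start site. The bin at the start site of Slc36a1 held 12, 8 and 6 counts in EV-treated and 41, 26 and 54 in control libraries. The bins at that of Slc38a7 held 185, 144 and 155 counts in EV-treated and 80, 65 and 89 in control libraries. Of windows of entries that rose, 8.33% hold an E-box, and of windows of entries that fell, 7.14%, both near the 7.15% of all windows.

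Sodium-driven carriers of glutamine and alanine at the cell surface, Slc38a1 and Slc38a2, lie 44.5 kb apart on chromosome 15 and were both higher. Slc38a2 had 141, 121 and 144 CPM in EV-treated and 81.3, 81.3 and 69.5 CPM in control libraries, a log2 fold change of 0.81 (SE 0.12), and all 16 of its bins were higher. Slc38a1 had 132, 106 and 142 CPM in EV-treated and 77.9, 67.7 and 93.5 CPM in control libraries, a log2 fold change of 0.67 (SE 0.15), which with library totals alone was 0.30 and did not pass (adjusted p = 0.125). Slc38a6, of the same family, had 20.9, 20.4 and 25.6 CPM in EV-treated and 77.4, 54.4 and 49.4 CPM in control libraries, a log2 fold change of -1.44 (SE 0.17), with no overlap between groups. Of its 28 bins with at least 50 counts, 20 were lower and 8 overlapped. Slc38a10, an intracellular member of the family, did not pass, at 227 ± 10.9 CPM in EV-treated and 242 ± 21.9 CPM in control libraries.

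The Slc43a family holds sodium-independent carriers of leucine and other large neutral amino acids and a carrier of nucleobases. Slc43a2, of the first kind, had 114, 92.3 and 122 CPM in EV-treated and 177, 153 and 171 CPM in control libraries, a log2 fold change of -0.61 (SE 0.13). Slc43a3, the nucleobase carrier, had 11.4, 11.5 and 11.6 CPM in EV-treated and 5.91, 6.35 and 6.01 CPM in control libraries, a log2 fold change of 0.92 (SE 0.11). The groups of both lay apart. Bins of Slc43a2 did not all move alike, since of 34 with at least 50 counts 19 were lower, 1 was higher and 14 overlapped. Slc43a1, 73.0 kb from Slc43a3 on chromosome 2, stayed under 1 CPM, and its log2 fold change of 1.22 (adjusted p = 0.0193) did not pass without EV-treated B (1.05, adjusted p = 0.0585), control B (1.21, adjusted p = 0.0552) or control C (0.97, adjusted p = 0.0665), nor with library totals alone (0.86, adjusted p = 0.0747).

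**Figure D4:**
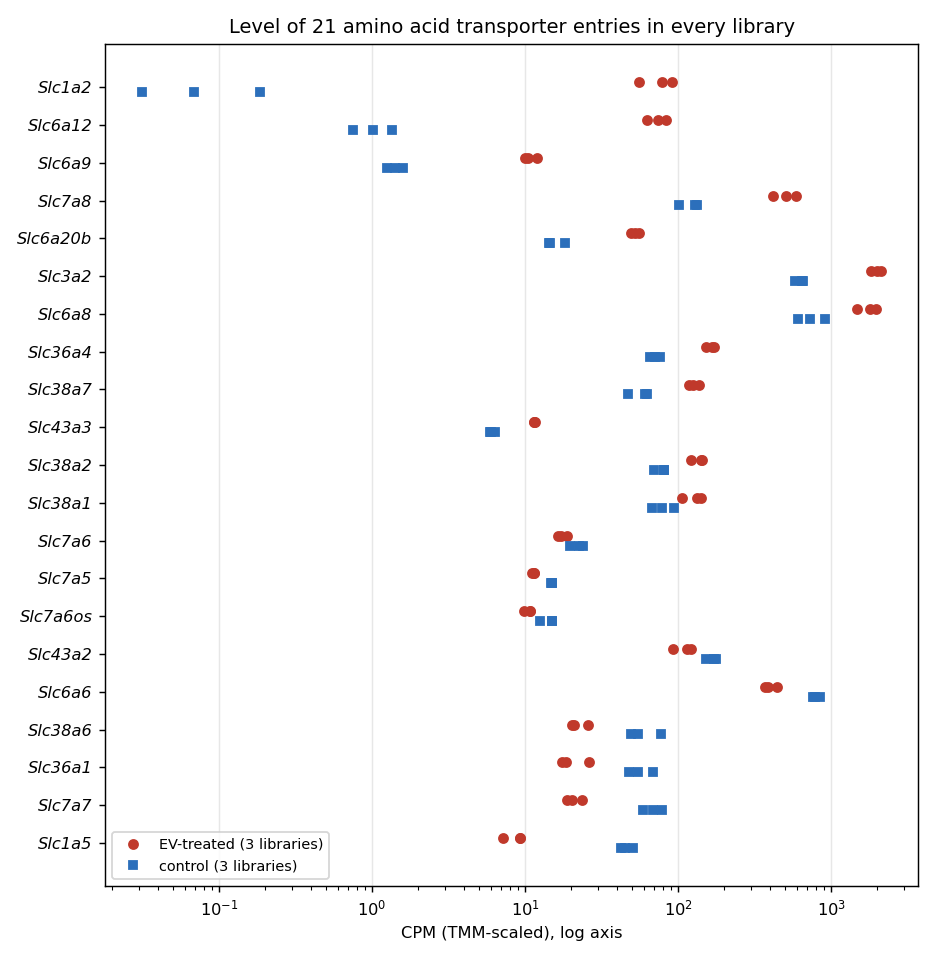
CPM on a log axis in each library for the 21 entries that passed, averaged at least 5 CPM and had no overlap between groups, with EV-treated as circles and control as squares. The gap is widest for Slc1a2 and Slc6a12, with log2 fold changes of 9.47 and 6.15.

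Genes that sense and use amino acids, outside the transporters, were read from the same fit. Of 20 genes of the response to amino acid shortage through GCN2 and ATF4, 11 rose and 4 fell (75.0% called, median log2 fold change 0.87). Ddit4, an inhibitor of mTORC1, averaged 89.2 CPM in EV-treated and 1.11 CPM in control libraries (log2 fold change 6.32), and Vldlr, a lipoprotein receptor, and Ppp1r15a, a subunit of the phosphatase that acts on eIF2, had log2 fold changes of 6.81 and 3.17. The enzymes of proline and serine synthesis in this list moved the other way, Aldh18a1 by -2.25, Phgdh by -1.02 and Psat1 by -0.51. Of 28 tested genes of amino acid sensing by mTORC1, 10 rose and 9 fell (67.9% called, median 0.13). The GTPase Rragd had a log2 fold change of 1.88, the sestrins Sesn3 and Sesn1, of a family of leucine sensors, moved by 2.03 and -2.55, and the mTOR inhibitor Deptor by -3.52.

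Of 21 tested carriers of amino acids outside the rule, 6 rose and 9 fell (71.4% called, median -0.16). The cystine carrier Slc7a11, a light chain of Slc3a2, averaged 675 CPM in EV-treated and 36.5 CPM in control libraries (log2 fold change 4.21), and Slc32a1, the vesicular carrier of GABA and glycine, had 11.8 CPM in EV-treated and 0.0687 CPM in control libraries (7.36). The mitochondrial serine carrier Sfxn1 rose by 2.30 on the log2 scale. Slc16a10, a carrier of aromatic amino acids, had 14.8 CPM in EV-treated and 107 CPM in control libraries (-2.85), and the lysosomal cysteine importer Mfsd12 had 138 CPM in EV-treated and 585 CPM in control libraries (-2.09).

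Among enzymes of glutamine, glutamate and glutathione, 7 of 16 rose and 5 fell (75.0% called, median 0.08). Gls2, a glutaminase, averaged 10.5 CPM in EV-treated and 0.336 CPM in control libraries (log2 fold change 4.98), and the subunits of the enzyme that starts glutathione synthesis were higher, Gclc by 1.29 and the joined entry Gm6061+Gclm by 2.18. Among 17 enzymes of serine, glycine and one-carbon metabolism, 7 rose and 5 fell (70.6% called, median 0.00). The mitochondrial folate enzymes Mthfd1l, Aldh1l2 and Mthfd2 had log2 fold changes of 5.18, 6.78 and 1.30, and the serine hydroxymethyltransferase Shmt2 had -1.09.

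Of 16 genes of branched-chain amino acid breakdown, 3 rose and 10 fell (81.2% called, median -0.59). Pccb, a subunit of propionyl-CoA carboxylase, had a log2 fold change of -2.10, Dbt, a subunit of the branched-chain keto acid dehydrogenase, -2.24, and Bckdk, the kinase of that complex, -1.12. Of 23 entries for cytosolic aminoacyl-tRNA synthetases and their scaffold proteins, 7 rose and 9 fell (69.6% called, median -0.08), from Rars with 1.84 among the rises named to Vars with -1.72 among the falls. With library totals alone 4 of these rose and 14 fell. The shares called in these lists are set beside the 66.5% of all entries tested, and the lists were not compared by a test.

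**Figure D5:**
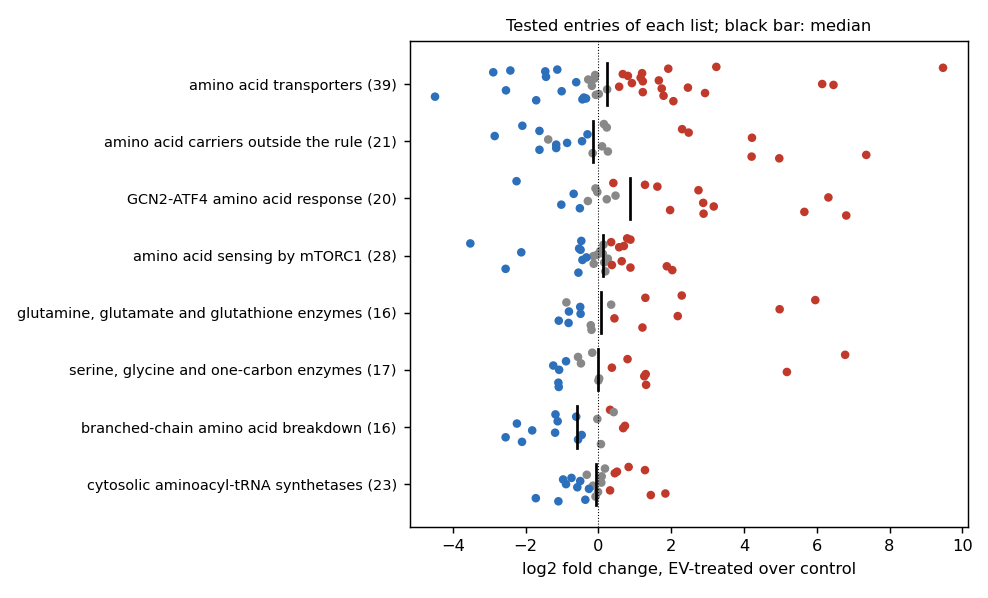
Log2 fold change in EV-treated over control microglia of each tested member of the transporter set and 7 related gene lists, with the median of each list marked. The medians run from -0.59 for branched-chain amino acid breakdown to 0.87 for the GCN2-ATF4 response, and every list holds members on both sides of 0.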

How the data were processed

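Polyadenylated RNA of 6 cultured microglia samples was extracted with Trizol, made into NEBNext Ultra libraries and sequenced as paired reads, per the labels' protocols. Trimmomatic 0.36, STAR, Subread, DESeq2 and GRCm38 are named in the submitters' processing notes. The annotation and the settings of the counting, strand included, are not given in sources used here. The deposited values are raw counts per exon bin, per the file headers. Of 44 pairs of bins on opposite strands that share at least 90% of their bases, 43 had counts within 10% of each other, so reads of overlapping genes cannot be told apart by strand. Of 425461 bins, 17340 share bases with another entry and hold 5.96% to 6.85% of the counts. A read can fall in several bins, so a sum over bins is not a number of distinct reads.

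From these, counts were summed per gene entry (48005 entries, of which 1194 join several genes), and symbols were found for 49298 of 49644 identifiers. The 6 sample files were identical to the table of the whole series. Entries were filtered with filterByExpr (16605 left), scaled by TMM (factors 0.855 to 0.921 in EV-treated and 1.09 to 1.16 in control libraries) and tested with edgeR 4.0.16 in R 4.3.3 (glmQLFit and glmQLFTest, 2-sided, no covariate). P-values were adjusted by Benjamini-Hochberg over the 16605 entries, with a threshold of 0.05. An SE is the size of a log2 fold change over the root of its F statistic. The common biological coefficient of variation was 0.174. Bin values rest on bins with at least 50 counts over the 6 libraries and on whether the groups overlap in CPM. Percentiles of level are by CPM per kb over all tested entries.

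Given with every library are entries that passed with a mean of at least 5 CPM and no overlap, up to 12 each way (12 rises and 9 falls), the Slc3a2 and Slc3a1 exchangers and the glutamate carriers. The transporters, lists and markers were chosen with earlier results of these data known, and Slc6a13, Slc7a4, Slc7a1, the other transporters given beside these, the bin stretches and the printed promoters were chosen after their values were seen. Alternatives tried were scaling by RLE, by upper quartile or by totals alone, no filter, a filter of 50 or more counts in 3 or more libraries, limma-voom (limma 3.58.1), DESeq2 1.42.0, a replicate block, the bin with the most counts, each library left out, and, chosen after seeing the data, bins of no other entry. The gene test was tested on simulated counts of 15732 genes, with 47 to 49 genes changed at each size. It recovered 49% and 47.9% of log2 changes of -1 and 1, and 85.1% and 91.8% of -2 and 2. It also called 12 unchanged genes. Far fewer genes were changed there than passed in the real data, so these shares need not hold here. One transporter entry is not reported here.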

Additional observations from a re-analysis of the deposited data

How the results depend on the processing

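Of 613 values of transporter entries under the alternatives, 579 kept their direction and their side of the threshold, 17 lost the call, 3 gained it and 14 turned direction. All 14 belong to entries that did not pass with TMM. Slc3a1 turned in bins of no other entry (2.62). Slc7a1, at 0.01, turned with library totals alone (-0.35), upper-quartile scaling (-0.11) and no filter (-0.06) and ran from -0.07 to 0.09 with a library left out. With a library left out, Slc7a15 ran from -0.66 to 0.27, Slc6a16 from -1.18 to 0.79 and Slc6a21 from -0.03 to 0.56, and Slc6a21 was -0.11 with totals alone. In all, 27 of 39 entries kept direction and call throughout. Entries counted as higher numbered 14 of 33 tested with the bin with the most counts, 16 of 39 with totals alone and 23 of 62 with no filter, against 19 of 39, and 18 to 20 with a library left out. Entries counted as lower numbered 11 to 16 over all alternatives, against 13, and 11 to 13 with a library left out. The median log2 fold change of the transporters, 0.24, was 0.12 with upper-quartile scaling, -0.11 with totals alone, -0.15 with the bin with the most counts and 0.56 in bins of no other entry, and 0.11 to 0.56 with a library left out, where other entries also passed the filter. With totals alone, 6 mTORC1 sensing genes rose (10 with TMM), 8 one-carbon enzymes fell (5 with TMM), and 4 tRNA synthetase entries rose and 14 fell (7 and 9 with TMM). The cause of these shifts was not tested beyond the scaling itself.

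Correlations of deviations from the group means were 0.04, 0.17 and 0.21 for same-letter pairs and -0.20 to 0.03 for the others. For each EV-treated library the same-letter value was the highest. All were weak, so whether the letters pair the samples stays unknown. Numbers in the deposited column names match the samples otherwise, EV-treated B with control A (0.01) and EV-treated C with control B (-0.20). With the letter as a replicate block, 19 transporter entries rose and 13 fell, the median was 0.20, and 11609 of all entries passed against 11037. Entries under about 1 CPM rest on few counts, and their fold changes are the least precise.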

Other observations

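The 26 transporter entries that were not tested had at most 91 counts over the 6 libraries, and 3 of them (Slc6a18, Slc6a2 and Slc7a12) had 0 in every library. Slc6a20a, the neighbour of Slc6a20b, had 15, 64 and 10 counts in EV-treated and 0, 2 and 0 in control libraries. Slc7a14, a relative of the cationic carriers, had 4, 4 and 2 counts in EV-treated and 10, 11 and 9 in control libraries. Levels of these entries are too low for a fold change.

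Of the carriers outside the rule, Slc15a3, a lysosomal carrier of histidine and small peptides, averaged 3803 ± 197 CPM in EV-treated and 683 ± 79.7 CPM in control libraries (SD, n = 3 each), a log2 fold change of 2.48. On the scale of CPM per kb its mean level was 693 in EV-treated and 124 in control libraries, beside 561 and 177 for Slc3a2. It was named after its values were seen.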
